A study of Mus musculus with 12 samples.

Results

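The BCL2 family decides whether a cell under stress keeps or loses the integrity of its mitochondrial outer membrane. Anti-apoptotic members hold the effectors BAX and BAK in check, the effectors form the pores that release cytochrome c, and BH3-only members tip the balance by binding the anti-apoptotic proteins or by activating the effectors. In CD4+ T cells the family is known for setting the length of survival after priming, with cytokine signals maintaining anti-apoptotic members and BIM, the product of Bcl2l11, being central to the contraction of responses. The 10 genes described here were chosen by symbol, with earlier results of these data known. These are the anti-apoptotic Bcl2, Bcl2l1, Mcl1, Bcl2a1b and Bcl2a1d, the effectors Bax and Bak1, and the BH3-only Bcl2l11, Bbc3 and Pmaip1. They are 10 of the 40840 gene symbols listed in the count files, and all 10 passed the filter on low counts that left 13570 genes for testing.

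The libraries came from OTII cells, which are CD4+ and carry a transgenic T cell receptor for an ovalbumin (OVA) peptide, transferred into WT or Il6-/- recipients that were sensitized through the airways with 100 µg house dust mite (HDM) extract and 5 µg OVA, and that are also called hosts. The paper's results and figure legends add LPS to the HDM for this experiment, which the labels do not list. Its legends name the lung-draining mediastinal lymph node (mLN) as the organ of the sort, where the labels give blood. The 4 groups, WT and Il6-/- recipients on Day 3 and on Day 5, had 3 libraries each. Days are given as labelled, and the series text adds that the paper counts its times from 0 and not from 1. The Il6-/- recipients carry a germline deletion, while the donor cells were not deleted for Il6. Il6 reads in the sorted cells, 0 to 5 a library, therefore do not check the labels. All 4 groups shared the transfer, the antigen and the sort of donor CD4+ cells, and no group was left without allergen. Nothing in the sources used here says whether the 3 libraries of a group came from separate mice or from pools, so p-values measure the spread between these libraries, which may be technical.

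Counts assigned to genes ranged from 16125947 to 26111657 per library. T cell markers (9 of 9 detected) summed to 7595 to 14068 CPM (counts per 1000000 counts, TMM-scaled) in every library, and Ncr1, an NK cell receptor, had 1 count in a single library and none elsewhere. Neutrophil markers (7 genes) varied between libraries of the same group, from 0.217 to 121 CPM in sum. The Day 5 libraries had more reads outside annotated exons (15.2% to 17.3% of all reads against 11.7% to 12.9% on Day 3) and more myeloid and dendritic cell marker signal (17.2 to 46.5 CPM against 9.23 to 20.2 CPM, 9 genes), and T cell markers summed to 7595 to 9355 CPM on Day 3 and 12233 to 14068 CPM on Day 5. In WT recipients lung epithelium markers (6 genes) went from 0.494 to 1.79 CPM on Day 3 to 2.65 to 22.5 CPM on Day 5, and a CD8 T and NK cell list (6 genes) from 62.5 to 74.4 CPM to 90.4 to 110 CPM. In that list Klrb1c measured 3.75 to 5.58 CPM on Day 3 and 30.4 to 36.5 CPM on Day 5 in WT. In Il6-/- recipients both lists overlapped between the days. Lung epithelium markers were at 0.528 to 13.0 CPM on Day 3 and 5.98 to 10.7 CPM on Day 5 there. The CD8 T and NK cell list was at 83.6 to 114 CPM on Day 3 and 86.1 to 101 CPM on Day 5. The part of these in the day comparisons below was not tested.

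Bcl2l11 was 2.27-fold higher on Day 3 in cells from Il6-/- hosts, then rose in both genotypes to levels that overlapped by Day 5, 8.57-fold above Day 3 in WT and 3.51-fold above it in Il6-/- recipients. Bcl2l1, which encodes the survival factor BCL-XL, was higher in Il6-/- recipients on both days (1.98-fold on Day 3 and 1.60-fold on Day 5) and fell between the days in both genotypes. Mcl1 and Bcl2a1b rose with time, while neither effector gene, Bax or Bak1, passed the test in any comparison. The plot of CPM by library shows the 12 values of each gene.

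**Figure D1:**
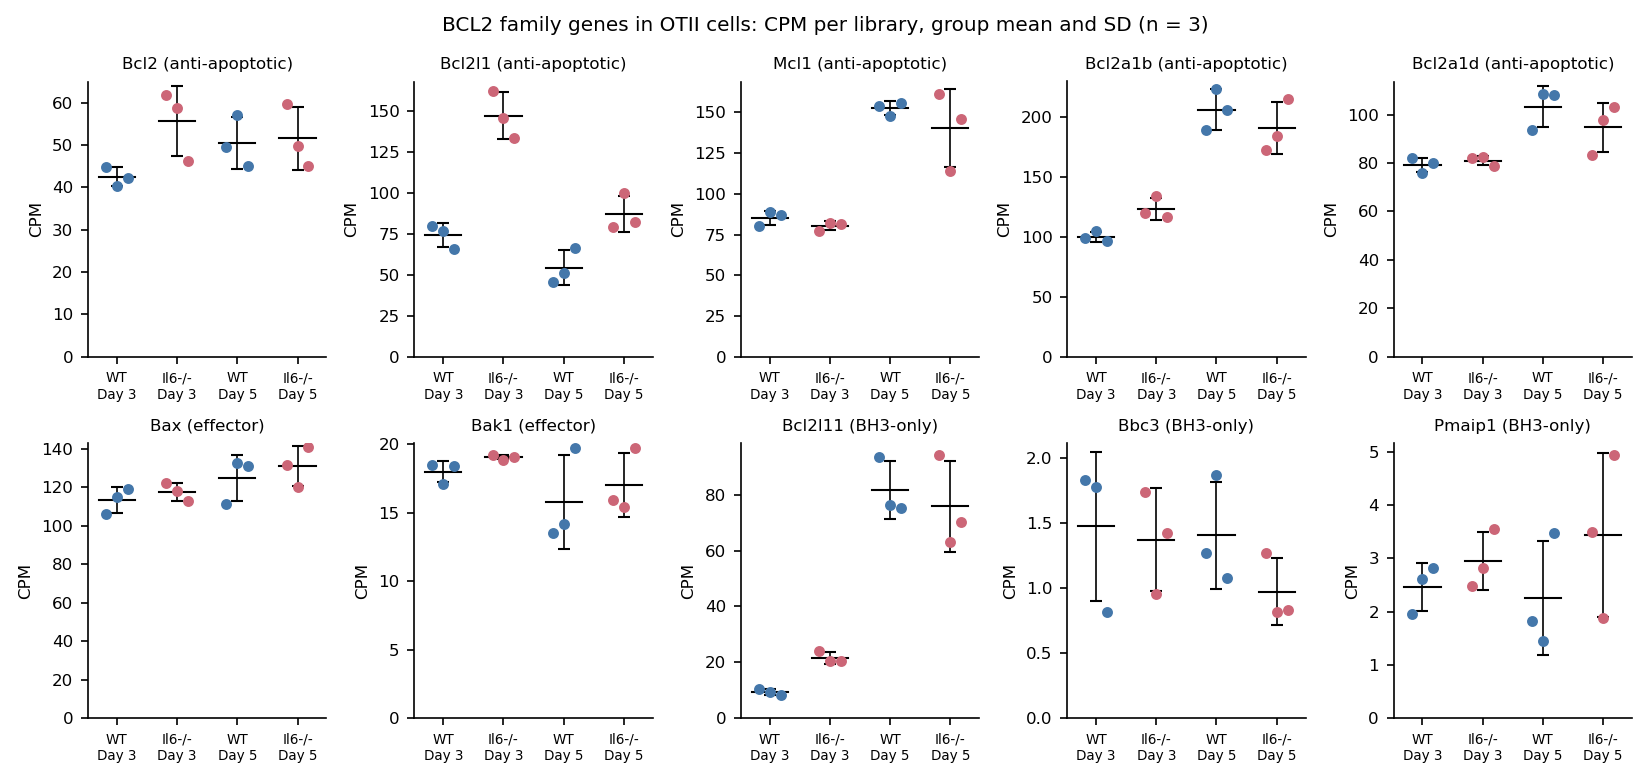
CPM (TMM-scaled, linear axis from 0, scale set for each panel) of the 10 BCL2 family genes in each library, with WT recipients in blue and Il6-/- recipients in red, and the group mean with SD (n = 3) in black. Bcl2l11 means stand at 9.49 and 21.6 CPM on Day 3 and at 81.7 and 75.8 CPM on Day 5 in WT and Il6-/- recipients, while Bax means stay between 113 and 131 CPM.

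To compare levels between genes, counts were divided by exon length as well as by library size (RPKM, using the union of annotated exons). In WT recipients on Day 3 the order of mean RPKM was Bcl2a1b (121), Bcl2a1d (91.8), Bax (61.01), Mcl1 (24.4), Bcl2l1 (14.5), Bak1 (7.48), Bcl2 (4.62), Bcl2l11 (0.938), Pmaip1 (0.902) and Bbc3 (0.308). Neighbours in this order did not overlap between libraries except Bcl2l11 and Pmaip1. For Bcl2a1b and Bcl2a1d this holds over full exon length only. Most of each transcript has exact matches elsewhere, and reads aligned there were not counted. Per 1000 unique windows (stretches of read length with no other exact match) their libraries overlapped in WT recipients on Day 3. Bcl2a1b was at 602 to 653 CPM and Bcl2a1d at 613 to 660 CPM. In Il6-/- recipients on Day 3 Bcl2l1 (28.7 RPKM) stood above Mcl1 (23.0 RPKM), with no overlap between libraries. By Day 5 Mcl1 (43.7 RPKM in WT and 40.2 RPKM in Il6-/- recipients) was again above Bcl2l1 (10.6 and 17.0 RPKM), and Bcl2l11 had moved up to the sixth place in both genotypes (8.08 and 7.50 RPKM), where its libraries overlapped those of Bak1 in both. On Day 5 the libraries of Bcl2l11 also overlapped those of Bcl2l1 in WT recipients, but not in Il6-/- recipients. These ranks depend on the length used: over the canonical transcript alone Bax, at 116 RPKM in WT recipients on Day 3, stands above Bcl2a1d, and Bcl2l11 at 1.88 RPKM. In a bulk sample fewer cells of a type and less RNA per cell cannot be told apart.

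Of the 10 genes, 3 passed the test between Il6-/- and WT recipients on Day 3 (edgeR quasi-likelihood F test, Benjamini-Hochberg FDR under 0.05 over all genes tested), against 13.7% of all genes in either direction. Bcl2l11, Bcl2l1 and Bcl2a1b were all higher in Il6-/- recipients, a direction taken by 7.52% of all genes. On Day 5 a single member passed, Bcl2l1, higher in Il6-/- recipients, against 4.61% of all genes in either direction (11.7% with the replicate number as a block) and 1.27% higher. Of the genes, 5 did not overlap between the 3 Il6-/- and the 3 WT libraries on Day 3 and all 5 were higher in Il6-/- recipients, against 36.2% of all genes without overlap and 20.5% higher. On Day 5 only Bcl2l1 did not overlap, against 19.6% of all genes and 8.65% higher. The median log2 fold change of the 10 genes, 0.17 on Day 3 and -0.04 on Day 5, compares with 0.01 over all genes on either day. With 3 libraries a group, an exact permutation test of a single gene cannot go below 0.1, so the calls rest on the spread shared across genes in the model.

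**Figure D2:**
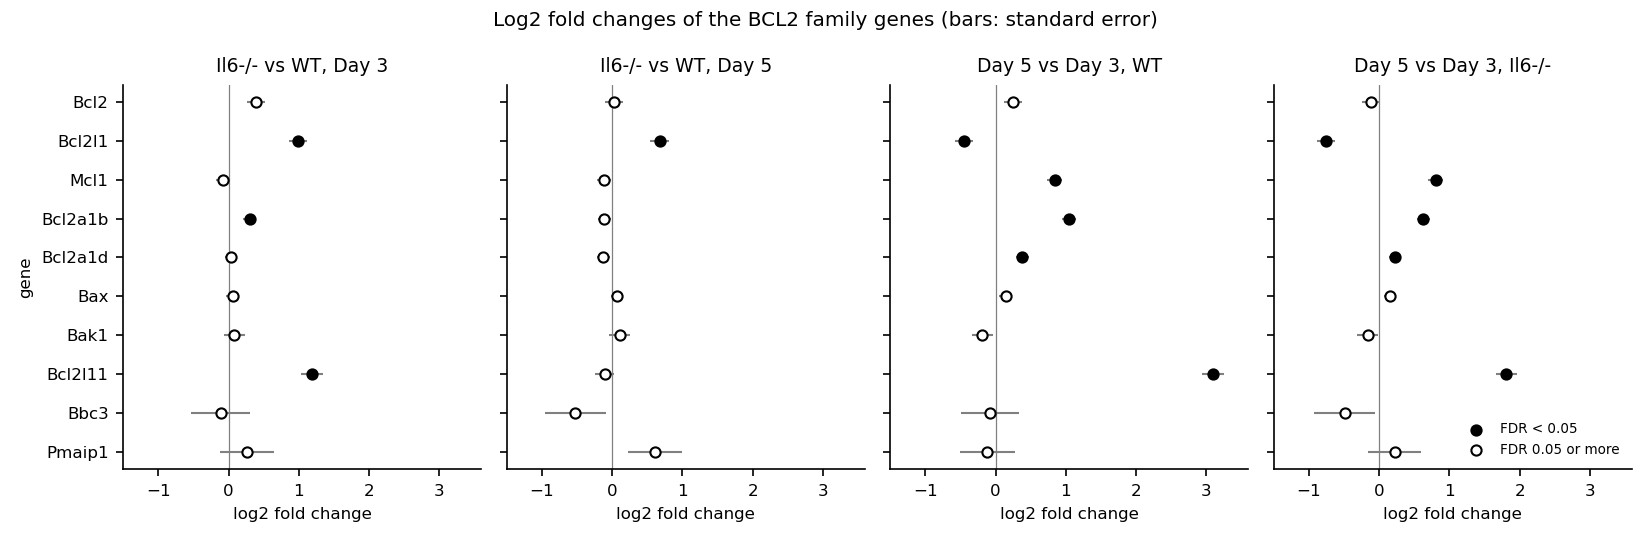
Log2 fold change (x axis) of each BCL2 family gene (y axis) in the 4 pairwise comparisons, with bars of 1 standard error, filled points at FDR under 0.05 and open points otherwise. Bcl2l11 lies at 1.18 between genotypes on Day 3 and at 3.10 between days in WT recipients, while Bbc3 and Pmaip1 carry the widest bars.

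Among the BH3-only genes, Bcl2l11 (GRCm39 chr2:127967958-128004476, plus strand, by GENCODE) encodes BIM, which binds all anti-apoptotic members and can activate the effectors. Its level in WT recipients on Day 3 was 10.5, 9.54 and 8.47 CPM, and in Il6-/- recipients 24.03, 20.4 and 20.4 CPM. On Day 5 it was 93.6, 76.3 and 75.1 CPM in WT and 94.2, 62.99 and 70.2 CPM in Il6-/- hosts. On Day 3 every Il6-/- library was above every WT library, and on Day 5 the 2 groups overlapped with both of their highest values in the libraries numbered 1.

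The Day 3 difference was a log2 fold change of 1.18 (approximate SE 0.15, 95% interval 0.85 to 1.51, FDR = 0.00022 by edgeR), and the Day 5 difference was -0.11 (95% interval -0.40 to 0.19, FDR = 0.74). The change of the genotype difference between the days, tested as an interaction, was -1.29 (SE 0.21, FDR = 0.0050), and Bcl2l11 was the only one of the 10 genes to pass it, against 4.92% of all genes in either direction and 3.12% lower. In every alternative setting and with any single library left out the Day 3 difference stayed at an FDR of 0.0022 or less. Klrb1c, an NK cell receptor gene also found on T cells, was likewise higher on Day 3. It measured 3.75 to 5.58 CPM in WT and 18.2 to 26.4 CPM in Il6-/- recipients. On Day 5, unlike Bcl2l11, it was lower in Il6-/- recipients (log2 fold change -0.60, FDR = 0.0497 by edgeR). With Cd8b1 (56.3 to 84.2 CPM in all libraries) Klrb1c made up most of a CD8 T and NK cell marker list of 6 genes. The sum of that list was 62.5 to 74.4 CPM in WT and 83.6 to 114 CPM in Il6-/- recipients on Day 3. The sum of the T cell markers also differed on Day 3, at 8108 to 9355 CPM in WT and 7595 to 7740 CPM in Il6-/- hosts, and its part in the Bcl2l11 difference was not tested. On Day 3 the other genes of the CD8 T and NK cell list reached at most 1.70 CPM for Cd8a, 1.27 CPM for Eomes, 0.0780 CPM for Klrk1 and 0.0390 CPM for Ncr1, and the part of that list in the Bcl2l11 difference was not tested.

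From Day 3 to Day 5 Bcl2l11 rose by 3.10 on the log2 scale in WT recipients (SE 0.16, FDR = 1.26e-08) and by 1.81 in Il6-/- recipients (SE 0.15, FDR = 8.42e-08), with no overlap between the days in either genotype. It had the largest day change of the 10 genes in both genotypes, ahead of Bcl2a1b in WT and of Mcl1 in Il6-/- recipients. Over the 12 libraries the genes whose log2 CPM followed Bcl2l11 most closely were Gm3636 (r = 0.991), Sp110 (r = 0.988) and Tnfrsf9 (r = 0.987), a description over libraries that share the same 2 days and genotypes.

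Bbc3 and Pmaip1, which encode PUMA and NOXA, BH3-only proteins that p53 is known to induce, were both near the lower end of what these libraries could measure. Bbc3 (chr7:16042318-16052130, plus strand) had 14 to 47 counts a library, or 0.814 to 1.87 CPM. Pmaip1 (chr18:66591604-66598636, plus strand) had 28 to 95 counts a library, or 1.45 to 4.94 CPM. Neither passed in any comparison, and the groups overlapped in each.

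For Bbc3 the 95% interval of the Day 3 genotype difference ran from -1.004 to 0.78 on the log2 scale, and on Day 5 from -1.45 to 0.40. For Pmaip1 the same intervals ran from -0.55 to 1.08 and from -0.21 to 1.42. Pmaip1 was highest in the third Il6-/- library of Day 5, at 4.94 CPM, beside 3.49 and 1.88 CPM in the other libraries of that group.

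Bcl2l1 (chr2:152622582-152673655, minus strand) differed between genotypes on both days. On Day 3 its level was 80.2, 77.0 and 65.9 CPM in WT and 162, 146 and 134 CPM in Il6-/- hosts. On Day 5 it was 45.6, 51.4 and 66.5 CPM in WT and 79.3, 100.2 and 82.5 CPM in Il6-/- hosts. All Il6-/- libraries were above all WT libraries of the same day, and the lowest Il6-/- value on Day 5 was close to the highest WT value on Day 3.

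The genotype difference of Bcl2l1 was a log2 fold change of 0.99 on Day 3 (SE 0.13, 95% interval 0.70 to 1.27, FDR = 0.00025) and 0.68 on Day 5 (SE 0.13, 95% interval 0.39 to 0.96, FDR = 0.0096). The 2 differences were not distinguished from each other by the interaction (-0.31, 95% interval -0.71 to 0.09, FDR = 0.39). The Day 5 call depended on the WT libraries, since the FDR was 0.0549 without WT Day 5 replicate 1 and 0.0516 without replicate 2, with log2 fold changes of 0.57 and 0.64. The genes most alike over the 12 libraries were Irf8 (r = 0.983), Mapkapk3 (r = 0.982) and Nfkb2 (r = 0.973).

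From Day 3 to Day 5 Bcl2l1 fell by 0.76 on the log2 scale in Il6-/- recipients (SE 0.13, FDR = 0.00015), where the days did not overlap. In WT recipients it fell by 0.45 (SE 0.13, FDR = 0.0099), but the days overlapped, with the third Day 5 library at 66.5 CPM and the third Day 3 library at 65.9 CPM. This call in WT recipients was lost with upper-quartile scaling (-0.25, FDR = 0.109) and without WT Day 5 replicate 1 (-0.34, FDR = 0.0519).

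Bcl2 (chr1:106465908-106642060, minus strand), the founding member, measured 44.8, 40.4 and 42.3 CPM in WT and 61.8, 58.8 and 46.4 CPM in Il6-/- hosts on Day 3. The libraries did not overlap, and the third Il6-/- library lay much closer to the WT libraries than the other two did. The log2 fold change was 0.39 (SE 0.13, 95% interval 0.11 to 0.66) with an FDR of 0.0586 by edgeR, short of the threshold. The call turned with the setting: the FDR was 0.0498 with RLE scaling, 0.0145 without a filter on low counts, 0.0298 by DESeq2, 0.0268 with only the 2 groups fitted, 0.0222 with the replicate number as a block, 0.0229 without Il6-/- Day 3 replicate 3, where the log2 fold change was 0.51, and 0.0385 without Il6-/- Day 5 replicate 1. On Day 5 Bcl2 was 49.5, 57.0 and 45.0 CPM in WT and 59.7, 49.9 and 45.1 CPM in Il6-/- hosts, and these overlapped (log2 fold change 0.03, 95% interval -0.24 to 0.30).

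Mcl1 (chr3:95566026-95570487, plus strand) encodes a short-lived anti-apoptotic protein that NOXA binds selectively. It was 80.05, 88.6 and 86.7 CPM in WT and 77.2, 82.3 and 81.6 CPM in Il6-/- hosts on Day 3, and 154, 148 and 156 CPM in WT and 161, 114 and 146 CPM in Il6-/- hosts on Day 5. Each Day 5 library was above each Day 3 library, and the genotypes overlapped on both days. The rise was 0.84 on the log2 scale in WT (SE 0.10, FDR = 6.01e-06) and 0.81 in Il6-/- recipients (SE 0.10, FDR = 7.67e-06). The genotype difference was -0.08 on Day 3 (95% interval -0.30 to 0.14) and -0.12 on Day 5 (95% interval -0.34 to 0.10). Sat1 (r = 0.993), Kmt2e (r = 0.993) and Usp3 (r = 0.992) had the most similar log2 CPM over the 12 libraries.

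Of the 4 genes in a list of MCL1 turnover factors, Huwe1, a ubiquitin ligase for MCL1, was higher in Il6-/- recipients on Day 3 (log2 fold change 0.33, SE 0.10, FDR = 0.036) and was the 1 gene of the list to pass there, and none passed on Day 5, beside 13.7% and 4.61% of all genes. Between the days Usp9x, a deubiquitinase for MCL1, fell in WT (-0.52, FDR = 0.0045) and in Il6-/- hosts (-0.35, FDR = 0.036). Huwe1 rose in WT recipients (0.29, FDR = 0.020) and Trim17, another ligase, rose in Il6-/- recipients (0.98, FDR = 0.022). That is 2 of 4 in each genotype, beside 56.7% and 60.5% of all genes. The interaction was passed by neither Huwe1 (FDR = 0.35 by edgeR) nor Trim17 (FDR = 0.52). Trim17 was low, with group means of 1.39 to 3.33 CPM.

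The A1 genes Bcl2a1b (chr9:89081262-89089889, plus strand) and Bcl2a1d (chr9:88605338-88613967, minus strand) are near copies that encode A1, an anti-apoptotic protein known as a target of NF-kB in activated lymphocytes. Their coding sequences, 516 bases each, differed at 6 bases (98.8% identity). The first 150 coding bases of each are printed to show how little separates them, with the 3 bases that differ in capitals:
Bcl2a1b: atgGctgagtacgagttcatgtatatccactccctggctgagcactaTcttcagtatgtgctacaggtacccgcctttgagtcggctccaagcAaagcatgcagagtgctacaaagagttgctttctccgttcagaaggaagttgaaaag
Bcl2a1d: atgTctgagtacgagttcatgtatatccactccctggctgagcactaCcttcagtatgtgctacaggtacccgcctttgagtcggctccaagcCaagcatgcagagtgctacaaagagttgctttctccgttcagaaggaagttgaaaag
A read of 50 bases that avoids the differing bases matches both, and reads aligned to more than 1 place were not counted. Of all 50-base windows in the transcripts, 79.4% in Bcl2a1b and 84.8% in Bcl2a1d had another exact match in the genome or transcriptome, which left 160 and 124 unique windows. The counts of both genes therefore come from a small part of each transcript and are uncertain as levels.

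On Day 3 Bcl2a1b was 98.7, 104 and 96.4 CPM in WT and 119, 134 and 116 CPM in Il6-/- hosts, without overlap. The log2 fold change was 0.30 (SE 0.09, 95% interval 0.10 to 0.50, FDR = 0.044). The call was lost in several settings: the FDR was 0.0852 with upper-quartile scaling, 0.111 without scaling beyond the total count, and 0.05 or more in 8 of the 12 fits that left out a library. These were the fits without any 1 of the 6 Day 3 libraries (FDR 0.056 to 0.18), without WT Day 5 replicate 3 (0.05) and without Il6-/- Day 5 replicate 2 (0.0742). On Day 5 it was 189, 223 and 206 CPM in WT and 172, 184 and 215 CPM in Il6-/- hosts, where the genotypes overlapped (log2 fold change -0.11, 95% interval -0.31 to 0.09). The interaction was -0.42 (SE 0.13, FDR = 0.086), and its FDR was 0.0172 with the replicate number as a block and 0.0438 without Il6-/- Day 5 replicate 3. Bcl2a1d overlapped between genotypes on Day 3. It was 81.9, 76.0 and 79.9 CPM in WT and 82.0, 82.4 and 78.7 CPM in Il6-/- hosts on Day 3, and its difference of 0.03 (95% interval -0.16 to 0.22) changed sign with 2 of the scalings, upper-quartile (-0.01) and none beyond the total count (-0.02), and without Il6-/- Day 5 replicate 2 (-0.004). On Day 5 it was 93.5, 108 and 108 CPM in WT and 83.5, 97.8 and 103 CPM in Il6-/- hosts.

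With time Bcl2a1b rose by 1.04 on the log2 scale in WT (SE 0.09, FDR = 3.15e-07) and by 0.63 in Il6-/- recipients (SE 0.09, FDR = 3.55e-05), and Bcl2a1d rose by 0.38 in WT (SE 0.09, FDR = 0.0019) and by 0.23 in Il6-/- recipients (SE 0.09, FDR = 0.038). The last of these was lost with RLE scaling (FDR = 0.0545), without a filter on low counts (0.251), by DESeq2 (0.0786) and without any 1 of 8 libraries, the 6 of Day 3 (0.0522 to 0.121) and Il6-/- Day 5 replicates 2 and 3 (0.0744 and 0.176). The ratio of Bcl2a1b to Bcl2a1d counts within a library was 1.21 to 1.38 in WT and 1.46 to 1.62 in Il6-/- recipients on Day 3, and 1.90 to 2.06 in WT and 1.88 to 2.08 in Il6-/- recipients on Day 5. Per unique window the 2 genes were at similar levels in WT recipients on Day 3 (624 and 639 CPM per 1000 windows). They lay apart in WT recipients on Day 5 (1286 and 833), and Casp4 (r = 0.983), Tcf25 (r = 0.976) and Fasl (r = 0.975) were the genes most alike to Bcl2a1b over the 12 libraries. The third copy, Bcl2a1a, did not pass the filter on low counts, and a related gene, Bcl2a1c, did not pass any test.

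The effectors, which form the membrane pores, were described by 2 genes that passed in no comparison. Bax (chr7:45111015-45116325, minus strand) was 106, 115 and 119 CPM in WT and 122, 118 and 113 CPM in Il6-/- hosts on Day 3, and 111, 133 and 131 CPM in WT and 132, 120 and 141 CPM in Il6-/- hosts on Day 5. The genotypes overlapped on both days, and the intervals of the difference were narrow (-0.13 to 0.24 on Day 3 and -0.12 to 0.26 on Day 5, log2). A share of 15.5% of its 50-base windows had another exact match, in Gm45808.

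Bak1 (chr17:27238784-27247983, minus strand) was 18.5, 17.1 and 18.4 CPM in WT and 19.2, 18.9 and 19.1 CPM in Il6-/- hosts on Day 3. These values did not overlap, but they differed by a log2 fold change of only 0.08 (SE 0.15, FDR = 0.78). On Day 5 the values were 13.5, 14.2 and 19.7 CPM in WT and 15.9, 15.4 and 19.7 CPM in Il6-/- hosts, with the third library the highest in both groups. Of its exon bases 18.2% are shared with Ggnbp1, and the counting did not use strand, so reads there cannot be assigned with certainty. Its change from Day 3 to Day 5 in WT recipients was -0.19 (FDR = 0.29), and without WT Day 5 replicate 3 it was -0.38 (FDR = 0.0293).

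Between Day 3 and Day 5, 5 of the 10 genes passed in WT recipients, 4 higher and 1 lower, against 56.7% of all genes in either direction (29.5% higher and 27.1% lower). In Il6-/- recipients 5 passed, again 4 higher and 1 lower, against 60.5% of all genes (30.4% higher and 30.1% lower). The members that passed were Bcl2l11, Bcl2a1b, Mcl1 and Bcl2a1d, higher on Day 5, and Bcl2l1, lower on Day 5, in both genotypes, whose comparisons share no library with each other. Each shares its Day 3 libraries with the genotype comparison of Day 3. Of the genes, 5 did not overlap between the days in WT (63.3% of all genes) and 5 in Il6-/- recipients (65.8% of all genes). The median log2 fold change of the 10 genes was 0.19 in both genotypes beside 0.09 over all genes. Most genes measured changed between the days, and the share of the 10 genes that passed is near the background. Upper-quartile scaling moved the median of all genes by 0.196 in WT and 0.229 in Il6-/- recipients on the log2 scale, and dropping the scaling moved it by 0.151 in Il6-/- recipients. Under these scalings Bax passed as higher on Day 5 (0.34 in WT and 0.38 in Il6-/- recipients with upper-quartile scaling, and 0.30 in Il6-/- recipients without scaling), and Bcl2 passed in WT recipients (0.44 with upper-quartile scaling), shifts of about the size of that of all genes.

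Because BIM acts by binding anti-apoptotic proteins, the counts of 3 of these were set against those of Bcl2l11 in the same library, as a description with no test. The ratio of Bcl2 to Bcl2l11 counts was 4.23 to 5.00 in WT and 2.27 to 2.88 in Il6-/- recipients on Day 3, and 0.529 to 0.747 and 0.634 to 0.792 on Day 5. The ratio of Mcl1 to Bcl2l11 was 7.66 to 10.2 in WT and 3.21 to 4.03 in Il6-/- recipients on Day 3, and 1.64 to 2.08 and 1.71 to 2.08 on Day 5. The ratio of Bcl2l1 to Bcl2l11 was 7.68 to 8.07 in WT and 6.55 to 7.15 in Il6-/- recipients on Day 3, and 0.487 to 0.886 and 0.843 to 1.59 on Day 5. On Day 3 all 3 ratios were lower in Il6-/- recipients without overlap, the Bcl2l1 ratio by the least, since Bcl2l1 and Bcl2l11 were both higher there. The 3 ratios share Bcl2l11, higher there without overlap, as denominator, so they are not 3 separate results. No share over all genes was computed for such ratios, and the A1 genes were not set against Bcl2l11. On Day 5 the genotypes overlapped in each ratio. The Bcl2l1 to Bcl2l11 ratio was higher in the Il6-/- library of all 3 same-numbered pairs (0.487 against 0.843, 0.673 against 1.59 and 0.886 against 1.18). This was not tested, and it depends on a pairing by number that the labels do not give. Counts are not divided by length here, so a ratio is read only across libraries, and RNA ratios say nothing of the amounts of protein.

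**Figure D3:**
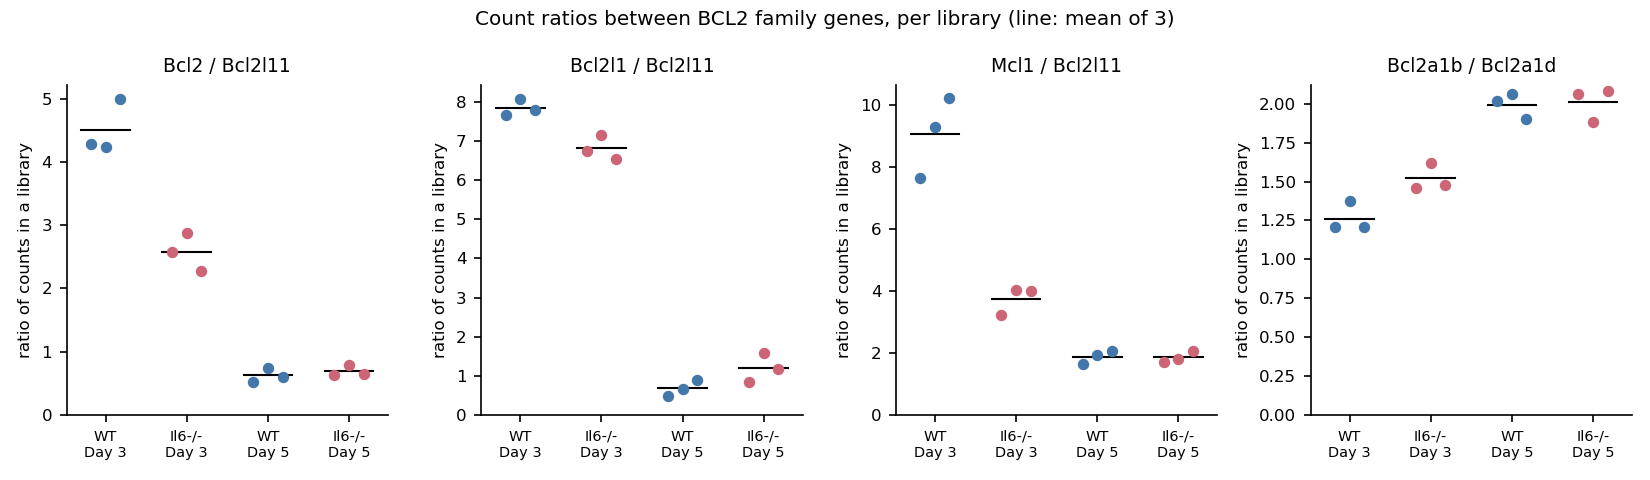
Ratio of the counts of the named pairs of genes within a library (linear axis from 0), for WT recipients in blue and Il6-/- recipients in red, with a line at the mean of 3 libraries. The Bcl2 to Bcl2l11 ratio drops from at least 4.23 in WT libraries on Day 3 to at most 0.792 in all Day 5 libraries, and the Bcl2a1b to Bcl2a1d ratio lies between 1.21 and 1.38 in WT libraries on Day 3 and between 1.88 and 2.08 in all Day 5 libraries.

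The 250 bases before the start of the GENCODE canonical transcript of each of the 10 genes, which for Bcl2l1 and Bbc3 lies inside the span of the gene and not at its outer end, were searched on both strands for 3 short motifs, TTCNNNGAA for STAT factors, GTAAACA for FOXO factors and, for NF-kB, GGG and TTTCC with any 2 bases between them. The STAT motif was in none of the 10 windows and in 6.65% of 11196 such windows of tested genes. The FOXO motif was in the windows of Bcl2l11, 227 bases before the start, and of Bak1, 69 bases before it (2.39% of all windows), and the NF-kB motif was in that of Mcl1, 22 bases before it (1.55%). The windows of Bcl2l11 (chr2:127967708-127967957) and Mcl1 (chr3:95565776-95566025), both on the plus strand of GRCm39, are shown because these genes rose between the days and each holds a match, printed in capitals:
Bcl2l11: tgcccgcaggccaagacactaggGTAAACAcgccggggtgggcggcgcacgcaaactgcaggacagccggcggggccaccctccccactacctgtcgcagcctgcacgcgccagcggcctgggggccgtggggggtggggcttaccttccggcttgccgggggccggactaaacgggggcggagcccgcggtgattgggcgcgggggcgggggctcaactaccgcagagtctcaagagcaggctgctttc
Mcl1: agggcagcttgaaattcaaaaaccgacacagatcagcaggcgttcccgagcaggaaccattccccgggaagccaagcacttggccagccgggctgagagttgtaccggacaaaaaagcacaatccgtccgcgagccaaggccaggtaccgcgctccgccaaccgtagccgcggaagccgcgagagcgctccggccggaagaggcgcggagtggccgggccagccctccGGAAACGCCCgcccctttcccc
The match in Mcl1 is on the opposite strand and so is printed as its reverse complement. A match of letters is not a bound site, and no binding was measured here.

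FOXO factors, which are held out of the nucleus by growth factor and cytokine signaling, are known to act on Bcl2l11, and a list of 8 genes holds them, some of their known targets and stress-induced regulators. On Day 3, 4 of the 8 passed between genotypes: Il7r was higher in Il6-/- recipients (log2 fold change 0.62, FDR = 0.017), and Trib3 (-1.21, FDR = 0.016), Foxo1 (-0.28, FDR = 0.041) and Klf2 (-0.86, FDR = 0.047) were lower. On Day 5 only Foxo1 passed, again lower in Il6-/- recipients (-0.35, FDR = 0.029), beside 13.7% of all genes on Day 3 and 4.61% on Day 5. Between the days 7 of 8 passed in WT, 6 higher and 1 lower, and 6 of 8 in Il6-/- recipients, all higher, where 56.7% and 60.5% of all genes passed. Il7r, which encodes a receptor chain for survival cytokines, rose from 10.5 to 37.5 CPM on average in WT recipients, and Cdkn1b, a cell cycle inhibitor, rose from 24.2 to 83.9 CPM.

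A list of p53 and 11 of its known targets outside the family had 11 genes measured. On Day 3 Trp53 itself was higher in Il6-/- recipients (0.34, SE 0.07, FDR = 0.0044) and Trp53inp1 lower (-0.61, SE 0.13, FDR = 0.0068), and on Day 5 Ccng1 was higher (0.32, FDR = 0.024). These are 2 and 1 of the 11, beside 13.7% and 4.61% of all genes. The change of the Trp53inp1 difference between the days was 0.65 (FDR = 0.056). Between the days 5 of 11 passed in WT, 2 higher and 3 lower, and 6 of 11 in Il6-/- recipients, 3 in each direction, beside 56.7% and 60.5% of all genes. The largest of these changes was in Gtse1, a gene of the G2 and M phases, which fell by 3.34 in WT and by 2.62 in Il6-/- recipients.

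The other 16 genes of the BCL2 family gave 12 that were measured, and Bcl2l10, Bcl2a1a, Bok and Hrk did not pass the filter. On Day 3, 2 of the 12 passed between genotypes, beside 13.7% of all genes. Bid, whose product links death receptors to the mitochondria, averaged 43.7 CPM in WT and 82.6 CPM in Il6-/- hosts (log2 fold change 0.92, SE 0.11, FDR = 0.00014). Bik, another BH3-only gene, averaged only 1.72 and 0.515 CPM (-1.73, SE 0.44, FDR = 0.017). On Day 5 Bid was again higher, at 38.1 and 59.6 CPM (0.65, SE 0.11, FDR = 0.0052), and it was the 1 of 12 that passed, beside 4.61% of all genes. Of the exon bases of Bid 31.2% are shared with Bcl2l13, and reads there cannot be assigned without strand.

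Between the days Bnip3l, a mitophagy receptor, rose from 108 to 220 CPM in WT (FDR = 7.16e-07) and from 87.0 to 199.8 CPM in Il6-/- recipients (FDR = 1.38e-07). Bnip3 rose by 1.08 and 1.17 on the log2 scale, and Bcl2l13 fell by 0.64 and 0.55. Bcl2l14 rose in WT recipients (1.11, FDR = 0.011), while in Il6-/- recipients Bcl2l15 rose (1.41, FDR = 0.028) and Bid fell by 0.47 (FDR = 0.0022). In all, 4 of 12 passed in WT, 3 higher and 1 lower, and 5 of 12 in Il6-/- recipients, 3 higher and 2 lower, beside 56.7% and 60.5% of all genes. The remaining genes, Bad, Bmf, Bcl2l2, Bcl2l12 and Bcl2a1c, passed in no comparison. The interaction was passed by none of the 12, beside 4.92% of all genes.

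**Figure D4:**
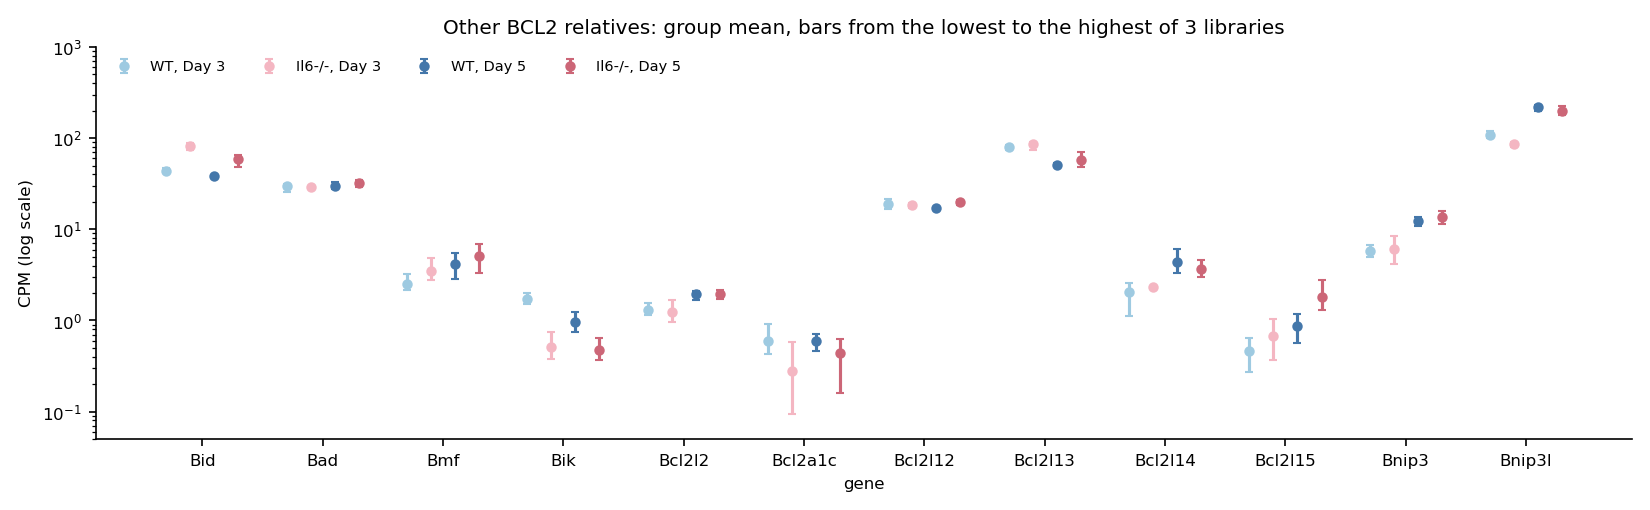
CPM (log axis) of the 12 measured relatives of the family outside the 10 genes, with the group mean as a point and a bar from the lowest to the highest of 3 libraries. Bid stands at 43.7 and 82.6 CPM on Day 3 and at 38.1 and 59.6 CPM on Day 5 in WT and Il6-/- recipients, and Bnip3l is higher on Day 5 in both genotypes.

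Downstream of the mitochondria, a list of 14 genes for cytochrome c, caspases and their inhibitors was measured in full. Between genotypes only Cycs, which encodes cytochrome c, passed on Day 3 (248 CPM in WT and 328 CPM in Il6-/- hosts, log2 fold change 0.40, FDR = 0.033), and only Endog, a mitochondrial nuclease, on Day 5 (4.24 and 1.30 CPM, -1.70, SE 0.31, FDR = 0.0064), where 13.7% and 4.61% of all genes passed. Between the days 10 of 14 passed in WT, 3 higher and 7 lower, and 12 of 14 in Il6-/- recipients, 4 higher and 8 lower, beside 56.7% and 60.5% of all genes. Birc5, which encodes survivin and is known chiefly for its role in mitosis, fell most in WT recipients, from 464 to 65.3 CPM, and Cycs fell from 248 to 122 CPM. The inhibitors of apoptosis Birc2 and Birc3 rose in WT (0.59 and 0.65) and in Il6-/- recipients (0.74 and 0.61).

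In the death receptor arm, a list of 7 genes, Fas was lower in Il6-/- recipients on Day 3 (33.3 CPM in WT and 19.1 CPM in Il6-/- hosts, -0.80, SE 0.17, FDR = 0.0056) and no gene of the list passed between genotypes on Day 5. There Fas averaged 75.4 CPM in WT and 56.2 CPM in Il6-/- hosts (-0.42, 95% interval -0.76 to -0.08, FDR = 0.15 by edgeR). The interaction did not distinguish the Fas differences of the 2 days (0.37, FDR = 0.40). With time Fas rose in WT (1.18, FDR = 1.95e-05) and in Il6-/- hosts (1.56, FDR = 1.38e-06). Cflar, which encodes the caspase-8 inhibitor cFLIP, rose by 0.45 and 0.53, and Casp8 fell by 0.25 and 0.30. Of the 7 genes 6 passed in WT, 3 in each direction, and all 7 in Il6-/- recipients, 4 higher and 3 lower. These counts stand beside the 56.7% and 60.5% of all genes that passed in the same comparisons, and the 1 and 0 genes between genotypes beside 13.7% on Day 3 and 4.61% on Day 5.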

How the data were processed

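RNA from sorted OTII cells was sequenced as single-end reads of 50 bases. The authors used Trim Galore (0.4.4) for trimming and STAR (2.5.2a) for alignment, with GRCm39 as the genome, and deposited, per library, raw counts per gene from HTSeq-count (0.6.1p1) run without strand, which leaves out reads aligned to several places. The annotation release is not given in the sources used here. A deposited table of log2 CPM of 11258 genes matched these counts with a prior count of 0.25 and was used in 1 alternative. Rows that name no gene (no feature, ambiguous, not unique) were left out, and genes took 52.5% to 62.2% of all reads.

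Samples were grouped by the labels. All 12 libraries were fitted in edgeR (4.0.16, R 4.3.3) with filterByExpr, TMM scaling (factors 0.944 to 1.06) and 1 coefficient per group, and the quasi-likelihood F test was adjusted by Benjamini-Hochberg over 13570 genes, with 0.05 as the threshold. Standard errors are approximate, from the fold change and its F value, and 95% intervals use 15.0 degrees of freedom. The script was tested on simulated counts. CPM and fold changes are on the TMM scale, and RPKM uses exon lengths of GENCODE vM39, whose positions are given. Sequences come from the GRCm39 genome and GENCODE. The 10 genes and all lists were chosen with earlier results of these data known. All 10 genes are named, with every measured gene of the other BCL2 family list. At most 4 genes from each other list are named in a comparison, not always those of smallest FDR. For a member the genes of highest Pearson r are named. The search for a BH3 core in proteins was not run, and no protein sequence was used here.

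Same-numbered WT and Il6-/- libraries deviated together from their group means on Day 5 (r = 0.243, 0.206 and 0.129) and not on Day 3 (0.0325 to 0.0599). This hint of a pairing on Day 5 comes from the data and not from the labels, and the main fit used no pairing. The replicate block, an alternative, took the numbers as pairs on both days, and across the days in the day comparisons. Alternatives were RLE, upper-quartile and no scaling, no filter or a minimum of 1 CPM exceeded in 3 libraries or more, limma (3.58.1) with voom or on the deposited log2 CPM, DESeq2 (1.42.0), a replicate block, only the 2 groups compared, a call rule of at least 2-fold, and each library left out.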

Additional observations from a re-analysis of the deposited data

Results flagged for a closer look

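The genotype difference of Bcl2l11 differed between the days by a test of the difference itself (Day 5 minus Day 3, log2 -1.29, SE 0.21, edgeR FDR = 0.0050). The 3 Il6-/- libraries were above the 3 WT libraries on Day 3, and the groups overlapped on Day 5. The FDR was 0.0209 or less in the 12 fits that left out a library.

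The genotype difference of Endog differed between the days in the same test (-2.23, SE 0.41, FDR = 0.0097). Endog averaged 6.31 CPM in WT and 9.19 CPM in Il6-/- hosts on Day 3, and 4.24 and 1.30 CPM on Day 5, with 20 to 30 counts in the Il6-/- libraries of Day 5.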

How the results depend on the processing

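With a call rule of at least 2-fold the number of members passing was 1 between genotypes on Day 3, 0 on Day 5, 2 between the days in WT and 1 in Il6-/- recipients. Beside the 0 stands 1 gene at an FDR under 0.05. The share of all genes under the 2-fold rule is not given here, so these counts have no background beside them. Leaving out each library in turn gave 0 to 1 members on Day 5 (0 without WT Day 5 replicate 1 or 2) and 1 to 2 for the interaction (2 without Il6-/- Day 5 replicate 3). The replicate block, which paired by number on Day 3 as well as on Day 5, gave 2 members for the interaction. It moved Bcl2 on Day 3 to FDR = 0.0222 and Bcl2a1b in the interaction to FDR = 0.0172, and changed no other call. Over all genes it raised the share called from 4.61% to 11.7% on Day 5 and from 4.92% to 11.5% in the interaction. On Day 3 the share called was 13.7%, 19.6% with the block and 22.3% with only the 2 groups compared. With 1 library left out it ran from 6.71% (without WT Day 3 replicate 2) to 14.6% on Day 3, with 7.33% and 8.14% without Il6-/- Day 3 replicates 1 and 2 and 8.21% without WT Day 3 replicate 3, from 1.61% to 8.38% on Day 5 and from 1.68% to 6.77% in the interaction. The interaction could not be fitted with only the 2 groups compared. The cause of these changes was not tested.

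Of 15 results past the threshold none changed direction, and 25 alternative values lost the threshold while 304 kept it. The signs that turned belonged to results short of it. With upper-quartile scaling Bcl2a1d was -0.0070 between genotypes on Day 3, Mcl1 0.00041 in the interaction, Bak1 0.011, Bbc3 0.12 and Pmaip1 0.083 between the days in WT, and Bcl2 0.12 and Bak1 0.068 in Il6-/- recipients. Without scaling Bcl2a1d was -0.023 on Day 3, Mcl1 0.063 in the interaction and Bcl2 0.041 between the days in Il6-/- recipients. With limma on the deposited log2 CPM Bbc3 was 0.028 between the days in WT. With 1 library left out the ranges were, on Day 3, -0.0037 to 0.057 for Bcl2a1d and -0.39 to 0.092 for Bbc3. On Day 5 they were -0.088 to 0.13 for Bcl2, -0.23 to 0.035 for Mcl1, -0.0093 to 0.15 for Bax, -0.011 to 0.30 for Bak1 and -0.29 to 0.035 for Bcl2l11. In the interaction they were -0.15 to 0.15 for Mcl1, -0.066 to 0.13 for Bax, -0.095 to 0.22 for Bak1 and -0.015 to 0.80 for Pmaip1. Between the days they were -0.36 to 0.11 for Bbc3 and -0.58 to 0.11 for Pmaip1 in WT, and -0.13 to 0.53 for Pmaip1 in Il6-/- recipients. Bbc3 and Pmaip1 had the fewest counts of the 10 genes (14 to 47 and 28 to 95 a library), and the part of depth in their intervals was not tested.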
